A study of Mus musculus with 8 samples.

Results

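The guanylate-binding proteins (GBPs) of the mouse were followed through 8 subcutaneous B16-F10 melanoma tumors. The family was taken as the array rows whose gene symbol is 1 of 10 listed names, Gbp2 to Gbp11. Of these, 9 had a row among the 24675 genes with 1 symbol, and Gbp6 was not analysed here. The family was chosen by its measured difference between the diets in these same tumors, so its diet differences are given as a description, without a test.

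GBPs are large GTPases of the dynamin superfamily that are scarce in resting cells and strongly induced by interferon-gamma, and to a lesser extent by type I interferons. Once made, they gather on the membranes of pathogen vacuoles and on bacteria, work together with the smaller immunity-related GTPases, and open the way to the inflammasomes that activate caspase-1 and caspase-11. Tumor cells and the immune, stromal and vascular cells around them can all express GBPs when they meet interferon.

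Female C57BL/6J mice were kept on a high fat high cholesterol diet (HFHCD), and their controls on a chow diet (CD). Each diet was given for 2 weeks before B16-F10 cells, a melanoma line of C57BL/6 origin, were placed under the skin at 9 weeks of age, and tumors were taken at day 9. Total RNA of 4 HFHCD tumors and 4 CD tumors was hybridised to Affymetrix MouseGene2.0ST arrays, 1 tumor per array. The sample titles shorten the first diet to HFD, whereas the other labels name it HFHCD. All mice carried the same tumor line and no genetic change is named, and a whole tumor holds host cells beside tumor cells. Fewer cells of a type and less RNA per cell therefore cannot be told apart in any value below.

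Values are deposited log2 levels, in which a difference of 1 is a doubling, and they ran between 2.22 and 14.05 with array medians of 5.04 to 5.21. On an array a level can be compared between tumors for 1 gene but not between genes. Across all genes, 966 were lower and 1175 higher in HFHCD tumors at an unadjusted limma p under 0.05, here termed called, which is 3.91% and 4.76% of the genes tested. None reached an adjusted p under 0.05 (0%), and the smallest adjusted p was 0.32. The melanocyte markers had list means of 11.75 to 11.86 in HFHCD tumors and 11.66 to 11.80 in CD tumors. Without CD 1 the counts were 1767 lower and 1942 higher, and 632 were lower without HFHCD 1. Tumors CD 1 and CD 3 had the highest fibroblast, macrophage and skeletal muscle marker means of the 8 tumors.

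The promoters are shown first because interferon acts on the family through them. Interferon-gamma acts through gamma-activated sites (GAS) and induces IRF1, which like the type I interferon complex binds interferon-stimulated response elements (ISRE). RefSeq start sites (GRCm38.p6) gave a promoter window for 4 members, Gbp2, Gbp3, Gbp5 and Gbp7, and the 250 bases before the start are printed, 5′ to 3′ on the + strand. They lie at chr3:142620413-142620662 for Gbp2, chr3:142559794-142560043 for Gbp3, chr3:142496684-142496933 for Gbp5 and chr3:142530086-142530335 for Gbp7. Capitals mark each match to the ISRE core GAAANNGAAA, which reads TTTCNNTTTC from the other strand, or to the GAS motif TTCNNNGAA, which reads the same on both strands.
Gbp2: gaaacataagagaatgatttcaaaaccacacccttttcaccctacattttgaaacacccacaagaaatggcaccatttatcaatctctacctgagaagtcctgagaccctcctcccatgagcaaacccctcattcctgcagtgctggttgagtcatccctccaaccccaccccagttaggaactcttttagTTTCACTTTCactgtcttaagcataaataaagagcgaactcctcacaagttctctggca
Gbp3: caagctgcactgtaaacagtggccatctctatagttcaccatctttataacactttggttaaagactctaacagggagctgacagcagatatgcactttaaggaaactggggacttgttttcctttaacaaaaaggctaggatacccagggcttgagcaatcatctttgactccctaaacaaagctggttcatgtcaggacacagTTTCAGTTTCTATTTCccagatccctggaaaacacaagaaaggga
Gbp5: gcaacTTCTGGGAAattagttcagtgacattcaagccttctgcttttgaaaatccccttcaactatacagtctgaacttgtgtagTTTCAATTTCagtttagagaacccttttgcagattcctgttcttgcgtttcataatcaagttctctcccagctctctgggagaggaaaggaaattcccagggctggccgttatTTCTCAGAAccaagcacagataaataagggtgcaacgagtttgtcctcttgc
Gbp7: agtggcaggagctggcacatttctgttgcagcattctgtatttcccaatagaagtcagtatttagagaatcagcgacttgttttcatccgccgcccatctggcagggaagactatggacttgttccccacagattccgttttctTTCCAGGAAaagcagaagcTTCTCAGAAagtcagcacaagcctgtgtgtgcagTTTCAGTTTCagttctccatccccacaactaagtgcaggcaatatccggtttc

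All 4 printed windows held the ISRE core, against 2.98% of all 32851 windows of the same length. In Gbp2 the match began 59 bases before the start and in Gbp7 it began 53 bases before it. Gbp3 had a pair of overlapping matches, which began 45 and 39 bases before the start, and in Gbp5 the match lay further out, at 165 bases. The GAS motif was found in the windows of Gbp5, at 245 and 52 bases, and of Gbp7, at 106 and 87 bases, against 7.02% of all windows. No GAS match overlapped an ISRE match in these windows. The second annotated start of Gbp3 had neither motif in its window. A match is a description of the letters and not a measured site.

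**Figure D1:**
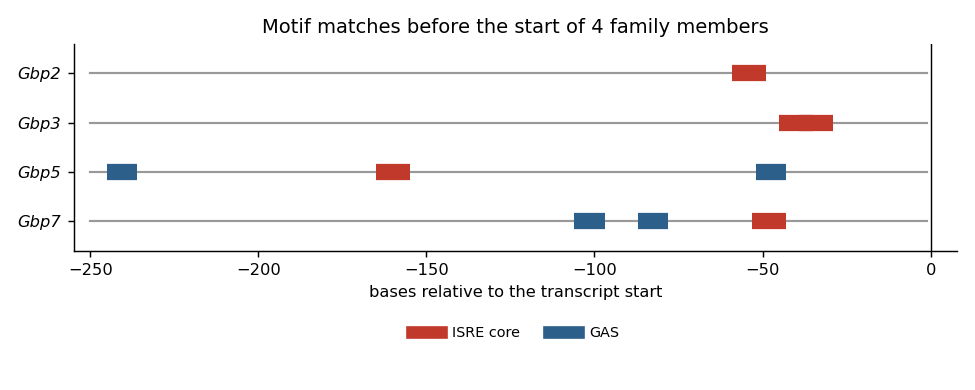
Positions of the ISRE core and GAS matches in the 250 bases before the RefSeq start of Gbp2, Gbp3, Gbp5 and Gbp7, as distance from the start in bases. The ISRE core lies within 59 bases of the start in Gbp2, Gbp3 and Gbp7, and 165 bases before it in Gbp5.

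The family stood lower in HFHCD tumors than in CD tumors. All 9 measured members had a negative log2 fold change, between -1.99 for Gbp2 and -0.56 for Gbp5, with a median of -1.16 against 0.0024 over all genes. Of the 9, 6 were called lower (Gbp2, Gbp3, Gbp4, Gbp5, Gbp7 and Gbp9) and 0 higher, beside 3.91% of all genes called lower. Since this contrast chose the family, nothing is read from that count. Without HFHCD 1, or without HFHCD 3, only Gbp2, Gbp3 and Gbp9 (3 members) were called, and without CD 3 the median was -0.69. The 4 HFHCD tumors lay below all 4 CD tumors for 2 members, Gbp5 and Gbp9, as for 2.27% of all genes, whereas 2.93% of all genes had the 4 HFHCD tumors above all CD tumors and no member did. Several mouse GBPs are near-identical in sequence, and probes may bind more than 1 of them, so the values of closely related members cannot be taken as fully separate.

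**Figure D2:**
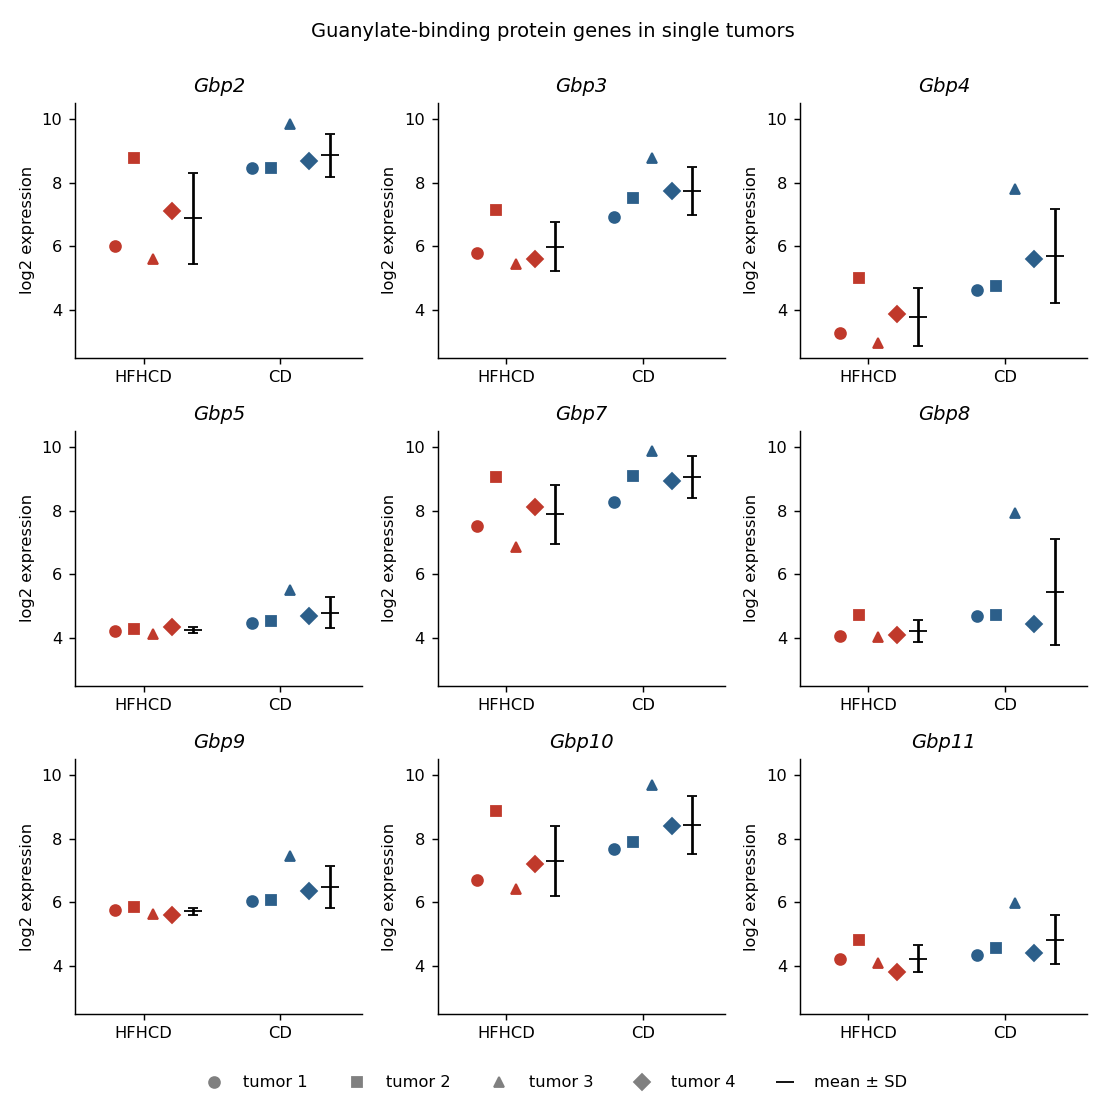
Deposited log2 level of each measured GBP in every tumor, with a panel per gene, HFHCD tumors left of CD tumors, a symbol for each tumor and a cross-line with bars for the mean and SD of each diet (n = 4). CD 3 is the highest point in all 9 panels, and the HFHCD and CD points are apart from each other in Gbp5 and Gbp9 alone.

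Gbp2, Gbp5, Gbp3 and Gbp7 are neighbours in 1 gene cluster. Gbp2 and Gbp5 carry the C-terminal CaaX motif, to which a lipid is attached so that the protein can sit on membranes. Gbp2, which coats pathogen vacuoles in mouse cells, had log2 levels of 6.00, 8.79, 5.60 and 7.10 in HFHCD tumors 1 to 4, against 8.45, 8.47, 9.85 and 8.67 in CD tumors 1 to 4. HFHCD tumors 1, 3 and 4 lay below every CD tumor, while HFHCD 2 exceeded all CD tumors but CD 3. The means were 6.87 ± 1.43 in HFHCD tumors and 8.86 ± 0.67 in CD tumors (SD, n = 4 each), a log2 fold change of -1.99 (SE 0.63), or 3.96-fold lower. Leaving out HFHCD 2 moved it to -2.62, and Gbp2 was no longer called without CD 1 and CD 3 together (-1.69) or with array weights (-1.57).

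Gbp5, which supports inflammasome assembly in mouse macrophages, had levels of 4.21, 4.29, 4.13 and 4.34 in HFHCD tumors against 4.46, 4.54, 5.52 and 4.68 in CD tumors. The groups did not overlap, but all HFHCD tumors and CD 1 lay below the 40th percentile of all values, 4.49, termed dim here, so no order is read between them, and only CD 2, CD 3 and CD 4 stood above it. The means were 4.24 ± 0.09 in HFHCD tumors and 4.80 ± 0.49 in CD tumors, a log2 fold change of -0.56 (SE 0.21), or 1.47-fold lower. Without CD 3 it was -0.32.

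Gbp3, another member of the cluster, had levels of 5.79, 7.13, 5.45 and 5.59 in HFHCD tumors against 6.92, 7.53, 8.77 and 7.74 in CD tumors. HFHCD 2 passed CD 1 and no other CD tumor, and the remaining HFHCD tumors lay close together below them all. The means were 5.99 ± 0.77 in HFHCD tumors and 7.74 ± 0.77 in CD tumors, a log2 fold change of -1.75 (SE 0.44), or 3.36-fold lower. With each tumor left out in turn it ran from -2.13 to -1.41, and it was called in all 8 such fits.

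Gbp7, which in mouse macrophages helps assemble the phagocyte oxidase, had levels of 7.51, 9.05, 6.87 and 8.12 in HFHCD tumors against 8.28, 9.09, 9.88 and 8.94 in CD tumors. HFHCD 2 stood among the CD tumors, above CD 1 and CD 4. The means were 7.89 ± 0.92 in HFHCD tumors and 9.05 ± 0.66 in CD tumors, a log2 fold change of -1.16 (SE 0.46), or 2.24-fold lower. It was called in 3 of the 8 fits that leave out a tumor, losing the call without CD 2, CD 3, CD 4, HFHCD 1 or HFHCD 3.

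The second cluster holds Gbp4, Gbp8, Gbp9, Gbp10 and Gbp11. Gbp4, which binds the transcription factor IRF7 in mouse cells, had levels of 3.27, 5.02, 2.97 and 3.86 in HFHCD tumors against 4.62, 4.75, 7.79 and 5.60 in CD tumors. HFHCD 2 again stood among the CD tumors, above CD 1 and CD 2, and CD 3 stood far above the rest. The means were 3.78 ± 0.90 in HFHCD tumors and 5.69 ± 1.47 in CD tumors, a log2 fold change of -1.91 (SE 0.69), or 3.76-fold lower. Without CD 3 it was -1.21, and without HFHCD 1 or HFHCD 3 it was no longer called.

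Gbp9 had levels of 5.77, 5.86, 5.64 and 5.60 in HFHCD tumors against 6.04, 6.08, 7.45 and 6.35 in CD tumors. The groups did not overlap, and the 4 HFHCD tumors were close together. The means were 5.72 ± 0.12 in HFHCD tumors and 6.48 ± 0.66 in CD tumors, a log2 fold change of -0.77 (SE 0.28), or 1.70-fold lower. Without CD 3 it was -0.44, and without HFHCD 4 it was no longer called.

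The other 3 members of that cluster were not called. Gbp10 had levels of 6.71, 8.88, 6.42 and 7.19 in HFHCD tumors against 7.67, 7.90, 9.70 and 8.40 in CD tumors, a log2 fold change of -1.12 (SE 0.57). HFHCD 2 exceeded CD 1, CD 2 and CD 4, and without that tumor the fold change was -1.64 and Gbp10 was called, whereas without CD 3 it was -0.69. Gbp8 had levels of 4.05, 4.71, 4.02 and 4.09 in HFHCD tumors against 4.68, 4.72, 7.94 and 4.43 in CD tumors, a log2 fold change of -1.22 (SE 0.69). HFHCD 1, HFHCD 3, HFHCD 4 and CD 4 were dim, HFHCD 2 stood close to CD 1 and CD 2, and the Gbp8 difference was -0.39 without CD 3. Gbp11, which RefSeq lists as a transcribed pseudogene, had levels of 4.23, 4.80, 4.08 and 3.82 in HFHCD tumors against 4.34, 4.58, 5.99 and 4.41 in CD tumors, a log2 fold change of -0.60 (SE 0.36). Only HFHCD 2, CD 2 and CD 3 were above the dim level for Gbp11, and without CD 3 the fold change was -0.21.

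**Figure D3:**
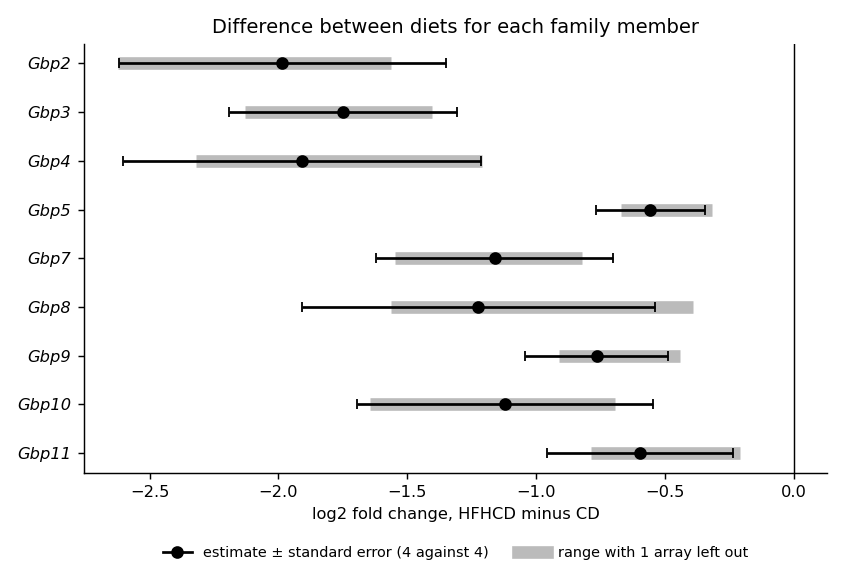
Log2 fold change of each measured GBP, HFHCD minus CD, from limma over all 8 tumors, as a point with its standard error, over a grey band for the range with 1 tumor left out. All points lie below 0, and leaving out CD 3 brings Gbp8 to -0.39 and Gbp11 to -0.21.

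By cluster, 4 of 4 measured members in that of Gbp2 (itself included) and 2 of 5 in that of Gbp4 (itself included) were called lower, with median log2 fold changes of -1.45 and -1.12; the difference between the clusters was not tested. Gbp2b, a relative in the cluster of Gbp2 that is not among the 10 names, was not called, with levels of 4.35, 4.14, 4.23 and 4.04 in HFHCD tumors against 4.06, 3.89, 5.56 and 4.17 in CD tumors. Except in CD 3, all tumors were below 4.49 for Gbp2b.

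The members varied together from tumor to tumor within each diet. CD 3 was the highest of the 8 tumors for 9 of 9 members, as it was for 13.1% of all genes. HFHCD 2 was the highest HFHCD tumor for 8 of 9, against 19.9% of all genes, the exception being Gbp5, whose HFHCD tumors were all dim, and HFHCD 3 the lowest tumor for 7 of 9, against 8.8% of all genes, the exceptions being Gbp9 and Gbp11. Within HFHCD tumors the SD was lowest for Gbp5 (0.09) and Gbp9 (0.12), below the 0.136 of the median gene, and ran from 0.33 for Gbp8 to 1.43 for Gbp2 in the others. Within CD tumors it ran from 0.49 for Gbp5 to 1.67 for Gbp8, above the 0.197 of the median gene. Gbp4, Gbp5, Gbp8 and Gbp11 had 3, 5, 4 and 5 tumors under the dim level of 4.49, and the order among those tumors cannot be read. HFHCD 3 as the lowest tumor is therefore not read for Gbp4, Gbp5 and Gbp8, which leaves Gbp2, Gbp3, Gbp7 and Gbp10.

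The gap between HFHCD 2 and the mean of the other HFHCD tumors differed between members. It was 2.55 log2 for Gbp2 and 2.10 for Gbp10, 1.65 for Gbp4, 1.54 for Gbp7 and 1.52 for Gbp3. It was 0.76 for Gbp11 and 0.66 for Gbp8, and close to 0 for Gbp5, at 0.06, and for Gbp9, at 0.18. For Gbp9, HFHCD 2 stayed with the other HFHCD tumors. For Gbp5 all HFHCD tumors were dim, so the gap gives no position for HFHCD 2. The gap of CD 3 over the mean of the other CD tumors was smaller for Gbp5 (0.96) and Gbp7 (1.11) than for Gbp8 (3.33) and Gbp4 (2.81), and the remaining members lay between 1.30 and 1.71.

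Markers of several other cell types moved with CD 3 as well as with diet, but those of the endothelium did not. The macrophage list (10 of 11 markers measured) averaged 6.01 to 6.60 in HFHCD tumors, against 7.71, 6.71, 8.04 and 6.62 in CD tumors 1 to 4, and 7 of its 10 genes were called lower. The fibroblast list averaged 5.56 to 5.72 in HFHCD tumors, against 7.69, 6.59, 8.26 and 6.42 in CD tumors, with 8 of 8 genes called lower. T cell markers averaged 4.12 to 4.34 in HFHCD tumors, against 4.34 to 4.52 in CD 1, CD 2 and CD 4 and 5.72 in CD 3. All 9 T cell markers were highest in CD 3, where the NK cell list also averaged 5.44, against 4.30 to 4.56 in the other CD tumors. Of 9 T cell markers 2 were called lower and 4 were dim in both groups, and of 9 NK cell markers 2 were called lower and 5 were dim, beside 3.91% of all genes called lower. The dendritic cell list averaged 5.35 to 6.03 in HFHCD tumors, against 6.09 to 7.26 in CD tumors, with 4 of 9 genes called lower. Those 4 were the MHC class II pathway genes H2-Aa (log2 fold change -2.04), H2-Ab1 (-1.91), Cd74 (-1.66) and H2-Eb1 (-0.92). Itgax, Flt3, Zbtb46, Clec9a and Xcr1 were not called, with log2 fold changes of -0.32 to -0.03. The skeletal muscle list averaged 5.03 to 5.66 in HFHCD tumors, against 7.21, 6.17, 7.52 and 5.50 in CD tumors, with 7 of 8 genes called lower. The dendritic cell and skeletal muscle means were both highest in CD 3. The endothelial list averaged 5.76 to 6.10 in HFHCD tumors, against 5.88 to 6.32 in CD tumors, with 1 of 8 genes called lower. The endothelial mean was highest in CD 4. The part of these cell types in the GBP values was not tested.

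The marker lists of HFHCD 2 were set beside its GBP level in the same way. Its GBP mean, expressed relative to the mean of the 8 tumors, was 0.30, within the range of -0.04 to 0.38 in CD 1, CD 2 and CD 4, whereas the other HFHCD tumors were at -0.91, -1.18 and -0.67. Its macrophage and fibroblast list means were 6.52 and 5.63, inside the range of the other HFHCD tumors. Its dendritic cell and skeletal muscle list means were the highest of the HFHCD tumors, at 6.03 and 5.66. In the dendritic cell list, HFHCD 2 was the highest HFHCD tumor for 5 of 9 genes, H2-Aa, H2-Ab1, Cd74, H2-Eb1 and Itgax. All of these but Itgax are MHC class II pathway genes. For Zbtb46 it was the lowest HFHCD tumor, at 4.61, and Flt3, Clec9a and Xcr1 were dim in all HFHCD tumors. Its NK cell list mean, 4.32, was under the dim level like those of the other HFHCD tumors, so no order is read. Whether the makeup of HFHCD 2 bears on its GBP level was not tested.

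**Figure D4:**
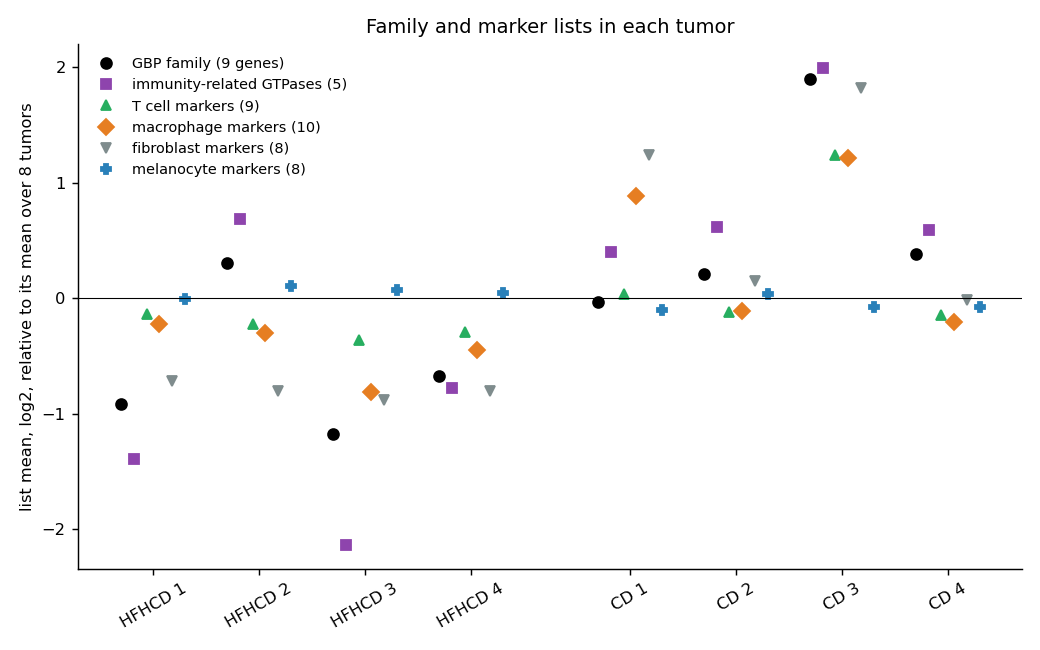
Mean of the GBP family and of 5 gene lists in each tumor, log2, relative to the mean of the same list over the 8 tumors. In HFHCD 2 the GBP and immunity-related GTPase means lie near CD 1, CD 2 and CD 4. Its macrophage and fibroblast means stay with the other HFHCD tumors. T cell means of all HFHCD tumors are dim, so no order is read among them. In CD 3 all but the melanocyte list are high.

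The interferon pathway around the family was described with 9 lists chosen by role, of 77 genes in all, 72 of them measured. Of those, 22 were called lower, 1 higher and 49 neither, against 3.91% and 4.76% of all genes; no adjusted p was under 0.05. Without CD 1 and CD 3 together, 14 were called lower. The lists were drawn up with earlier results of these data known, so these counts are a description and nothing is read from them. The immunity-related GTPase partners, which act with GBPs on vacuoles, had 5 of 5 measured members called lower and the strongest median of the lists, -2.02 (Tgtp1 and Tgtp2 were not analysed here). Igtp had levels of 6.07, 9.04, 5.12 and 7.11 in HFHCD tumors against 8.32, 8.80, 10.18 and 9.00 in CD tumors, with a log2 fold change of -2.24 (SE 0.75, adjusted p = 0.471). As for Gbp2, HFHCD 2 stood above CD 1, CD 2 and CD 4. Ifi47 was lower without overlap, by a log2 fold change of -2.02 (SE 0.56, adjusted p = 0.437), and Irgm2 had -1.44 (SE 0.48) and Irgm1 -1.14 (SE 0.36).

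Among the ligands and receptors, 1 of 9 was called lower, the receptor chain Ifngr1 (log2 fold change -0.27, SE 0.12, adjusted p = 0.576). That call was lost without CD 1, CD 2, CD 3, HFHCD 1, HFHCD 2 or HFHCD 4. The other receptor chain, Ifngr2, had 0.16 (SE 0.11) and was not called, but without CD 1 it was called higher (0.23). Ifng, which encodes interferon-gamma itself, was dim in every tumor, with 4.03, 4.09, 4.07 and 3.96 in HFHCD tumors against 3.96, 3.91, 4.05 and 3.85 in CD tumors, and so gives no order. In signalling and transcription factors, 4 of 10 measured genes were called lower. Their log2 fold changes were -1.01 (SE 0.31) for Irf7, -1.05 (SE 0.42) for Irf8, -0.80 (SE 0.30) for Irf1 and -0.65 (SE 0.22) for Batf2, with adjusted p-values of 0.463 to 0.537. Irf1, whose product binds ISREs, had 6.81, 7.59, 6.61 and 6.89 in HFHCD tumors against 7.54, 7.40, 8.63 and 7.51 in CD tumors, HFHCD 2 again above CD 1, CD 2 and CD 4.

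Of genes that restrain the pathway, 2 of 6 were called lower without overlap. Usp18, which blocks type I interferon receptors, had a log2 fold change of -1.02 (SE 0.24, adjusted p = 0.423), and the phosphatase Ptpn2 had -0.22 (SE 0.08). Among other interferon-gamma targets, 7 of 13 were called lower with a median of -0.75. The T cell attractants had log2 fold changes of -1.77 (Cxcl9, SE 0.56) and -1.07 (Cxcl10, SE 0.26). The immunoproteasome subunit Psmb8 had -1.68 (SE 0.48) and the peptide transporter subunit Tap2 -1.16 (SE 0.33). In inflammasome effectors, 3 of 8 were called lower, with Casp1 at 4.67, 4.75, 4.06 and 4.44 in HFHCD tumors against 5.85, 5.31, 6.67 and 5.01 in CD tumors. Casp1 thus did not overlap between the diets, and its log2 fold change was -1.23 (SE 0.32, adjusted p = 0.423). The nucleic acid sensor Zbp1 had -1.69 (SE 0.55) and Casp4, the gene of caspase-11, -0.43 (SE 0.17).

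The ubiquitin-like conjugation genes, which direct GBPs to vacuoles, had 0 of 10 called and a median of 0.08, beside 3.91% of all genes called lower and 4.76% called higher. That count depended on CD 1. Without that tumor 4 of the 10 were called higher, Gabarap (0.44, against 0.30 with all tumors), Gabarapl1 (0.36), Map1lc3b (0.37) and Atg12 (0.52), of which Map1lc3b was named after its value was seen. Without HFHCD 1, Atg3 was called lower (-0.25). The enzymes that prenylate and trim CaaX proteins had 0 of 6 called and a median of -0.01, and 1 of 6, Pggt1b, was called lower without CD 1 (-0.25). Of 5 related large GTPases, Atl1 was called higher, by 0.26 (SE 0.10, adjusted p = 0.505), a call lost without CD 3, HFHCD 2 or HFHCD 3, and Mx1 had -0.67 (SE 0.39) and was not called.

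**Figure D5:**
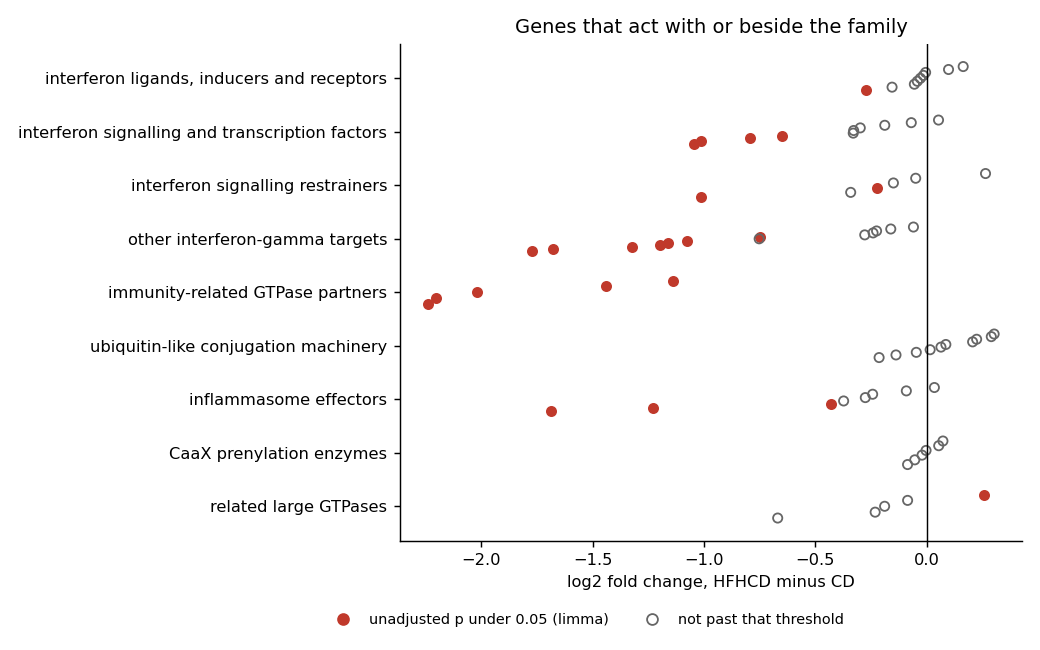
Log2 fold change, HFHCD minus CD, of every measured gene in the 9 pathway lists, 1 row per list, with genes at an unadjusted limma p under 0.05 as filled points and the others as open circles. The immunity-related GTPase partners are all filled and lie at a median of -2.02, while the conjugation machinery and CaaX enzymes lie around 0.

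The 5 genes outside the family whose course over the 8 tumors was closest to the family mean were Irgm1, Tap1, H2-D1, Psmb9 and Parp14. Likeness was the mean absolute difference between the centred log2 values of a gene and of the family, which was 0.123 for Irgm1, 0.126 for Tap1, 0.138 for H2-D1, 0.159 for Psmb9 and 0.161 for Parp14, against a median of 0.73 over 18637 genes. The members themselves differed from their own mean by 0.219 (Gbp10) to 0.533 (Gbp2). Irgm1 is an immunity-related GTPase, Tap1 a peptide transporter subunit, H2-D1 a class I heavy chain, Psmb9 an immunoproteasome subunit and Parp14 an ADP-ribosyltransferase. Irgm1 had 8.24, 9.27, 7.82 and 8.48 in HFHCD tumors against 9.06, 9.33, 10.51 and 9.46 in CD tumors, with CD 3 the highest and HFHCD 3 the lowest tumor. Pearson's correlation in place of the difference named 4 of the same 5 genes.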

How the data were processed

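RNA of 8 whole tumors, 4 per diet, was measured on MouseGene2.0ST arrays, 1 per tumor. The authors deposited log2 values per probe set, made with RMA and Affymetrix Expression Console according to the submitters' processing notes. RMA subtracts background, makes the arrays' probe distributions equal and summarises each probe set, which can narrow differences between arrays. Their versions, and how probe sets were defined, were not given in the sources used here. Of 25429 probe sets, 24675 had 1 gene symbol and were tested, 0 had several and 754 had none. Diets and replicate numbers came from the labels. Nothing states that tumors came from separate mice, so p-values cover only how far these tumors spread, and their number limits the precision.

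HFHCD minus CD was fitted in R 4.3.3 with limma 3.58.1 (lmFit, eBayes), with no covariate or filter, and the script was tested on simulated data. A gene was called when its unadjusted p was under 0.05, as in the study's methods, and p-values were adjusted by Benjamini-Hochberg over all genes. The alternatives were the methods' t-test, a replicate block, array weights, a trended and robust prior, median centring, quantile and cyclic loess normalization, a filter on dim genes (above 4.49, the 40th percentile, in at least 4 arrays), all probe sets, and leaving out tumors. Same-numbered tumors did not deviate together, so the numbers were not taken as pairs. The family, the gene lists and the markers were chosen with earlier results of these data known. All members were named, with up to 4 genes of each pathway list by smallest p, Ifng, Irf1 and the 5 genes most like the family. Promoters were RefSeq windows of GRCm38.p6, searched on both strands. Figures were drawn with matplotlib 3.10.9.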

Additional observations from a re-analysis of the deposited data

Results flagged for a closer look

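Dixon's test was applied to 98 groups of 4 tumors, covering 49 genes. In 11 of them the gap of 1 tumor to its nearest neighbour, as a share of the group's range, passed the critical value. Among independent groups, about 1 in 20 would pass it by chance. Many of these genes vary together and all share the same 8 tumors, so the count cannot be set against that rate. In 7 of the 11 groups the tumor was CD 3, above the other CD tumors. Among the members these were Gbp2 (a share of 0.845, CD 3 at 9.85), Gbp8 (0.917, CD 3 at 7.94) and Gbp11 (0.859, CD 3 at 5.99), and among the other genes Irf1 (0.885), Usp18 (0.936), Psmb8 (0.863) and Gbp2b (0.83). HFHCD 2 stood above the other HFHCD tumors for Gbp8 (0.894, at 4.71) and Irf8 (0.937, at 6.01). CD 1 was the highest CD tumor for Gabarapl1 (0.836) and the lowest for Pggt1b (0.864).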

How the results depend on the processing

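All 160 results of single members under alternatives kept their direction, 143 on the same side of the threshold, 16 no longer past it and 1 newly past it. Part of these directions could not change. The replicate block, the methods' t-test, the trended and robust prior, the dim filter and all probe sets leave a member's fold change as it was. Only the p-value can differ there, so those directions are no sign of stability. Of 9 measured members, 6 were called lower, but 2 (Gbp2 and Gbp3) by the methods' t-test, and 3 to 7 with a tumor left out, 3 each without HFHCD 1 and without HFHCD 3. The median log2 fold change ran from -1.55 to -0.69 with a tumor left out, the value nearest 0 being that without CD 3. With the replicate block 6 members and 21 pathway genes were called lower and 2 pathway genes higher; the same-numbered tumors' deviations correlated at 0.269, -0.029, -0.265 and 0.051. The 22 pathway genes called lower became 14 without CD 1 and CD 3 together and 14 by the methods' t-test, and ran from 16 to 25 with a tumor left out. The single pathway gene called higher became 3 without CD 1 and CD 3, 0 with the trended and robust prior, 4 with array weights, 3 with quantile and 3 with cyclic loess normalization, and 0 to 6 with a tumor left out. Over all genes, the 1175 called higher became 1810 without CD 1 and CD 3, 1928 with array weights and 839 to 1942 with a tumor left out, most without CD 1. The 966 called lower became 1776, 1582 and 632 to 1767 in the same settings, most without CD 1 and fewest without HFHCD 1, and 635 with the filter on dim genes, which tests 14878 genes. No setting gave a gene with an adjusted p under 0.05, the smallest lying between 0.101 and 0.809. On HFHCD tumors 4 members (Gbp4, Gbp5, Gbp8 and Gbp11) had a mean under the dim level, where low signal limits the size of a fall that can be measured.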
